A study of Mus musculus with 12 samples.

Results

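The genes described here encode subunits of voltage-gated potassium channels other than those of the A-type Kv4 family, in 2 dopaminergic areas of the mouse midbrain, SNpc (pars compacta of the substantia nigra) and VTA (ventral tegmental area). They are the rows of the deposited count table named Kcna, Kcnb, Kcnc, Kcnf, Kcng, Kcnh, Kcnq, Kcns, Kcnv, Kcnab or Kcne with a number, with Kcne1l added, 45 of 23079 genes listed. The series profiled dopaminergic neurons of C57BL/6 mice of both regions by TRAP, read here as translating ribosome affinity purification, which enriches the RNA bound to the ribosomes of a chosen cell type. The sources used here do not give the promoter that drove the ribosome tag, the age and sex of the animals or any pooling. Among the 12 columns, SNpc columns 4 and 5 held identical counts, as did VTA columns 2 and 3, so each pair was counted as 1 sample, which left SNpc libraries 1, 2, 3, 4 and 6 and VTA libraries 1, 2, 4, 5 and 6. Identical columns differ by less than the sampling noise. Whether each library is a different animal is not in the labels, and p-values therefore rest on a spread that may be technical. Values per library follow that order throughout.

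Voltage-gated potassium channels open on depolarisation and carry potassium out of the cell, which ends the action potential and sets how soon the next can begin. A channel is built from 4 alpha subunits around a pore, and members of a family combine with each other. Some alpha subunits, those of the Kcnf, Kcng, Kcns and Kcnv families, form no working channel by themselves and modify Kv2 channels, while Kcnab and Kcne genes encode auxiliary subunits that bind the pore-forming ones. In midbrain dopaminergic neurons, which fire as slow pacemakers, such channels shape the spike, the interval between spikes and the response to input.

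Levels are counts scaled to library size by the trimmed mean of M values (TMM) and written as CPM, and a log2 fold change is SNpc minus VTA, so that a negative value is a higher level in VTA. A gene is called when its Benjamini-Hochberg adjusted p in edgeR's quasi-likelihood test over all 15685 genes tested is under 0.05. Total counts ran from 62356964 to 81393907 per library. The markers of dopaminergic neurons stood high in every library, at a summed 12600 to 18300 CPM in SNpc and 6890 to 10100 CPM in VTA, and 11 of 12 were called higher in SNpc and 0 in VTA. Of 54 markers of other cell types, 1 was called higher in SNpc (Chat) and 14 in VTA. Of all tested genes, 17.8% were called higher in SNpc and 20.4% in VTA. In bulk samples of this kind, fewer cells of a type and less RNA per cell cannot be told apart.

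To show the sequence upstream of members called below, the 250 bases before an annotated start (RefSeq, build GRCm38.p6, which is mm10) are printed for each called member whose start window lies wholly outside the gene, which are 7 of the 18. Kcnab2 was called higher in SNpc, and Kcnab1, Kcna4, Kcnf1, Kcnh5, Kcnh8 and Kcnq5 higher in VTA. The windows are read 5′ to 3′ on the gene's strand. Capitals mark the GC box GGGCGG and the CCAAT box CCAAT, each searched on both strands, and no 2 matches share a base here. The windows lie at chr4:152477550-152477799 (minus strand), chr3:64948962-64949211 (plus), chr2:107290339-107290588 (plus), chr12:17176889-17177138 (minus), chr12:75177333-75177582 (minus), chr17:52602459-52602708 (plus) and chr1:21962651-21962900 (minus).
Kcnab2: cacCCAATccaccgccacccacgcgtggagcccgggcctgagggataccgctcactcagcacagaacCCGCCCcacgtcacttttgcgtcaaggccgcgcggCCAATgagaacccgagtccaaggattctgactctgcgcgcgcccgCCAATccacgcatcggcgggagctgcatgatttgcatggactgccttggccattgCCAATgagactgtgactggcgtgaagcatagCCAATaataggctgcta
Kcnab1: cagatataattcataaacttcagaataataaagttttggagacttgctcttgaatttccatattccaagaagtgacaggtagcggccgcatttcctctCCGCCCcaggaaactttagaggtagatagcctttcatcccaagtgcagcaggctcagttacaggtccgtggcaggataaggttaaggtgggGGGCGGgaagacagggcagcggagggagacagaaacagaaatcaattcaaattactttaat
Kcna4: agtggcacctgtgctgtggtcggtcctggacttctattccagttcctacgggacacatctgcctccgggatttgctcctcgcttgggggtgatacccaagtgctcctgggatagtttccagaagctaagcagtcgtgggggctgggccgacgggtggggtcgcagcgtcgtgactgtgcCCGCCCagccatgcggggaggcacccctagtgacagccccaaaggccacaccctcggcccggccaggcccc
Kcnf1: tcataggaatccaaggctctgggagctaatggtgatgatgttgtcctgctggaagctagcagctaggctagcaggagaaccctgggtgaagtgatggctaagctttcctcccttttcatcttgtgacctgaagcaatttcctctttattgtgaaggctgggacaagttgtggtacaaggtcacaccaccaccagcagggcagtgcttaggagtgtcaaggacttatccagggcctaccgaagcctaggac
Kcnh5: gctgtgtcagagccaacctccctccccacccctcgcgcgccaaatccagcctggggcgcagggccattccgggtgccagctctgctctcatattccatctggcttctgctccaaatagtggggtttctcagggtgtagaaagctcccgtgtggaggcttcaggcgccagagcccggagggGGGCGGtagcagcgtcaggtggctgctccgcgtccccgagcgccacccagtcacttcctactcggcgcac
Kcnh8: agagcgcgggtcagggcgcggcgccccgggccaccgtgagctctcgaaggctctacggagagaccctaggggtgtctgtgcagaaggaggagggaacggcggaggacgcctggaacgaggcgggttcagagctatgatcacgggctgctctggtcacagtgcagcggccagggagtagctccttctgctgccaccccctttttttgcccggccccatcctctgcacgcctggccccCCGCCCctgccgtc
Kcnq5: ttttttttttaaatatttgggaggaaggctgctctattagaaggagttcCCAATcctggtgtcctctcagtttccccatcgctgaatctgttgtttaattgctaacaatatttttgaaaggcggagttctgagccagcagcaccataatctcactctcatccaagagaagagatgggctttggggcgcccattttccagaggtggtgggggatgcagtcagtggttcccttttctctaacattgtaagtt
Of these 7 windows, that of Kcnab1 held 2 GC boxes, those of Kcnab2, Kcna4, Kcnh5 and Kcnh8 held 1 each, and those of Kcnf1 and Kcnq5 held 0. The Kcnab2 window held 5 CCAAT boxes, a number reached by 0.21% of all 32851 RefSeq windows of this length, and the Kcnq5 window held 1. The CCAAT box was searched after the sequences had been seen. Over the 40 windows of the 29 members with an entry, 52.5% held a GC box, against 32.7% of all windows, and 22.5% held a CCAAT box, against 33.8% of all windows. The TATA box TATAAA was in 0 of the 40 windows and in 12.4% of all windows. A match of letters is a description and not a bound site.

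Most of the subunit genes whose level differed were higher in VTA. Of the 45 members, 41 passed the filter on low counts, and of these 2 were called higher in SNpc and 16 higher in VTA. That is 4.88% of the tested members on the SNpc side, where 17.8% of all tested genes were called, and 39.0% on the VTA side, where 20.4% of all tested genes were called. In either direction, 38.2% of all tested genes were called. The regions did not overlap for 14 of the 41 members, and for 26.6% of all tested genes. The median log2 fold change of the tested members was -0.80, against -0.04 over all genes tested, and single values ran from -2.85 to 1.18. After a trend on exon length and GC content had been removed, 5 members were called higher in SNpc and 11 higher in VTA. With that trend removed and the library scale kept, 2363 of all 15685 genes tested were called higher in SNpc and 2582 in VTA. Against a minimum change of 1.5-fold, 1 member, Kcns3, was called higher in SNpc and 8 in VTA, and the calls of Kcna2, Kcna4, Kcnab2, Kcnc1, Kcnc2, Kcnc4, Kcnf1, Kcnq5 and Kcns2 ended. Under that minimum, 94 of all 15685 genes tested were called higher in SNpc and 1146 in VTA. The 4 members that were not tested, Kcna7, Kcna10, Kcne1 and Kcne3, had at most 25 counts in any library, and Kcne1 had no count in any SNpc library.

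**Figure D1:**
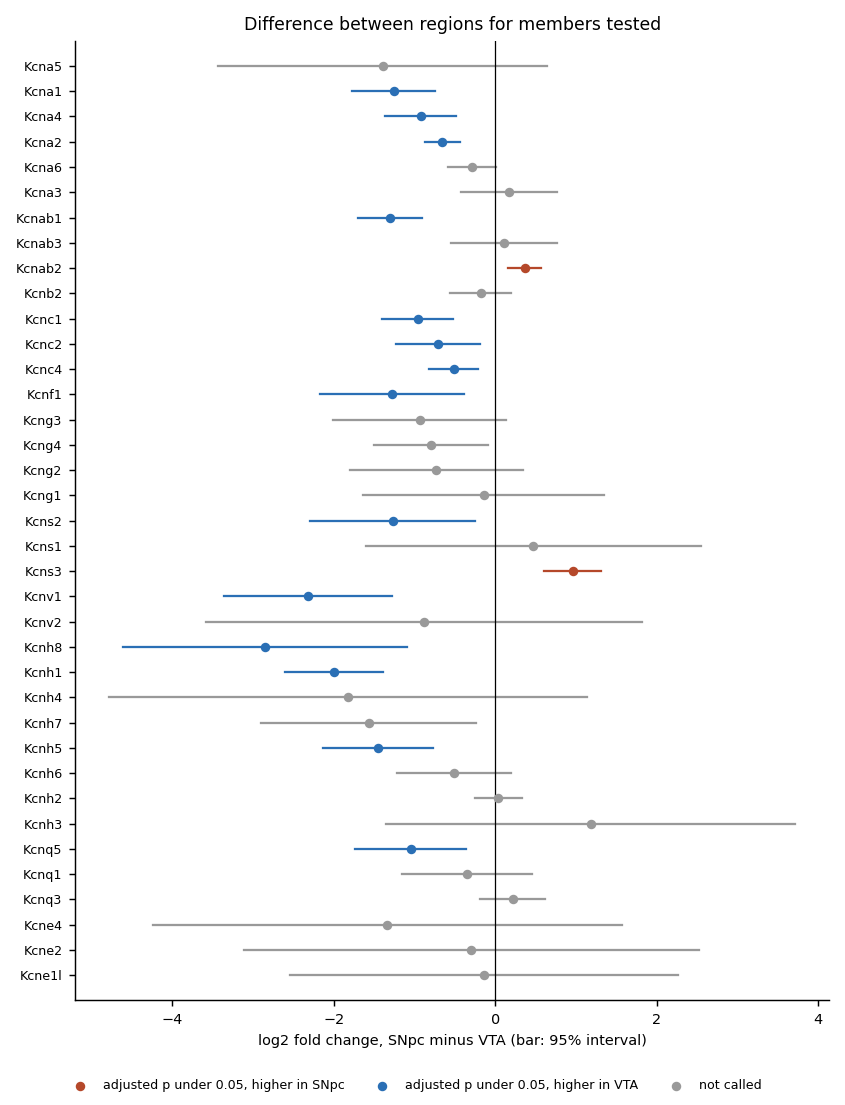
Log2 fold change (SNpc minus VTA, x axis) of 37 of the 41 members tested, grouped by family, with its 95% interval from the standard error with 8 degrees of freedom. Of the 16 called members shown in colour, 2 lie to the right of 0 and 14 to the left.

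Levels of different genes are compared only per kb of exon, since a longer gene collects more reads. Kcnab2, Kcna1 and Kcna6 were among the 5 most abundant members per kb in both regions, Kcns3 in SNpc and Kcna2 in VTA. Kcna1 stood at 26.2 ± 8.04 CPM per kb in SNpc and 62.9 ± 14.0 CPM per kb in VTA (SD, n = 5 each, as for all such values). Kcnab2 had 39.2 ± 1.75 CPM per kb in SNpc and 30.4 ± 2.76 CPM per kb in VTA. In SNpc, the means of Kcna1, Kcna6, Kcns3 and Kcna2 lay between 21.2 and 26.2 CPM per kb, within the SD of 8.04 CPM per kb of Kcna1. At the other end, 12 members averaged under 1 CPM in both regions: Kcna5, Kcna7, Kcna10, Kcnh3, Kcnh4, Kcns1, Kcnv2 and all 5 Kcne genes.

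**Figure D2:**
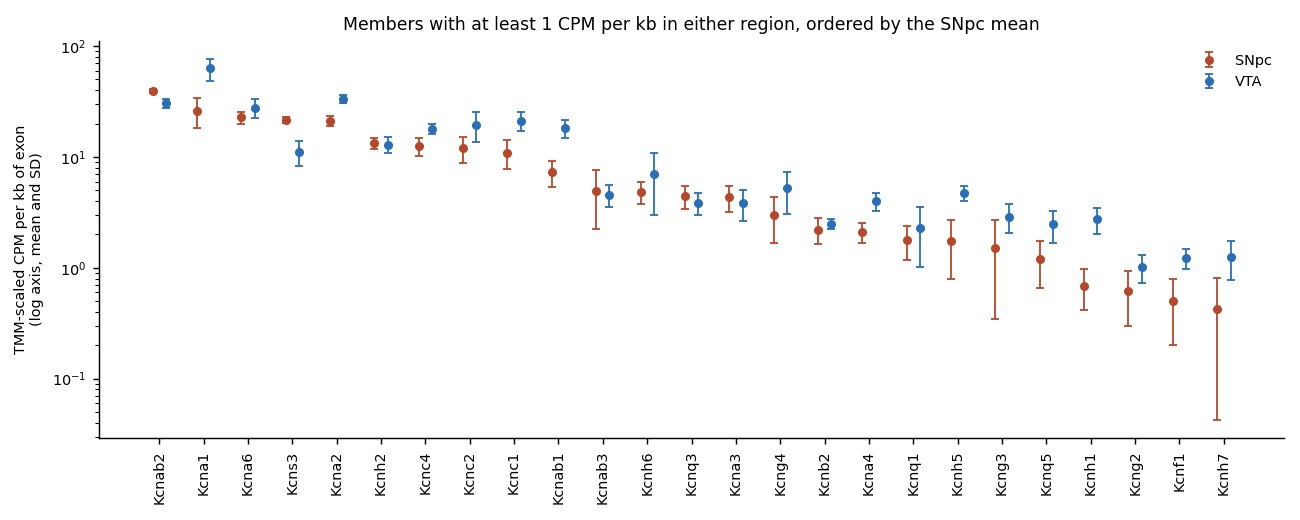
Mean level per kb of exon (log axis) with its SD for 25 members that reached 1 CPM per kb in either region, ordered by the SNpc mean. SNpc lies above VTA for Kcnab2 and Kcns3, and VTA lies above SNpc for Kcna1, Kcna2 and Kcnab1.

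Among the Kv1 alpha subunits, which sit mainly on axons and open near threshold, 3 of 6 tested were called higher in VTA and 0 in SNpc, where 20.4% of all tested genes were called higher in VTA and 17.8% in SNpc. Kcna1, the Kv1.1 subunit (Entrez 16485, GRCm38.p6 chromosome 6, 126636463 to 126645801), had 62.0, 111, 141, 154 and 111 CPM in the SNpc libraries, against 362, 321, 233, 214 and 258 CPM in the VTA libraries. Every VTA library was above every SNpc library, and the log2 fold change was -1.26 ± 0.22 (SE, with an adjusted p of 0.000789 by edgeR). Kcna2, the Kv1.2 subunit, had 221, 250.0, 249, 298 and 246 CPM in the SNpc libraries, against 396, 452, 367, 371 and 408 CPM in the VTA libraries. Its groups were also apart, at a log2 fold change of -0.66 ± 0.09 (SE, with an adjusted p of 4.9e-05 by edgeR). The call of Kcna2 ended when the length and GC trend was removed, where the log2 fold change was -0.17 (edgeR adjusted p = 0.124). Kcna4, the Kv1.4 subunit that inactivates fast, had 11.8, 7.82, 8.51, 9.54 and 12.7 CPM in the SNpc libraries, against 15.4, 23.5, 16.2, 18.9 and 21.6 CPM in the VTA libraries, a log2 fold change of -0.92 ± 0.19 (SE, with an adjusted p of 0.00115 by edgeR) with separate groups.

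Kcna6, the Kv1.6 subunit, averaged 133 ± 16.6 CPM in SNpc and 162 ± 30.7 CPM in VTA, and its log2 fold change of -0.29 ± 0.13 (SE, with an adjusted p of 0.0853 by edgeR) did not pass. It was called without VTA library 1 (-0.39, edgeR adjusted p = 0.0148), without SNpc library 6 (-0.36, edgeR adjusted p = 0.0468), with library totals as scale (edgeR adjusted p = 0.037) and with all 12 columns (edgeR adjusted p = 0.0219), and it was 0.012 with the length and GC trend removed. Gm26673 on the opposite strand overlaps 40.4% of its exon length, so its count is uncertain. Kcna3, the Kv1.3 subunit, averaged 8.21 ± 2.11 CPM in SNpc and 7.31 ± 2.24 CPM in VTA, a log2 fold change of 0.17 with a 95% interval from -0.43 to 0.77. Kcna5, the Kv1.5 subunit, averaged 0.338 ± 0.239 CPM in SNpc and 0.890 ± 0.545 CPM in VTA and was not called. As a share of all Kv1 alpha subunits per kb, Kcna1 made up 21.8% to 39.8% in the SNpc libraries and 42.1% to 57.5% in the VTA libraries, without overlap. The share of Kcna2 was 26.0% to 29.2% in SNpc and 23.3% to 27.1% in VTA, with overlap.

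The auxiliary beta subunits, which bind Kv1 channels, differed in opposite directions. Kcnab1, the beta subunit that makes Kv1 channels inactivate (Entrez 16497, GRCm38.p6 chromosome 3, 64949212 to 65378225), had 21.8, 19.1, 19.2, 34.2 and 24.7 CPM in the SNpc libraries, against 57.9, 51.4, 59.9, 48.8 and 76.5 CPM in the VTA libraries. Its groups were apart by a log2 fold change of -1.31 ± 0.17 (SE, with an adjusted p of 2.02e-05 by edgeR). Kcnab2, which acts in the traffic of Kv1 channels to the axon (Entrez 16498, GRCm38.p6 chromosome 4, 152390744 to 152477549), had 170.5, 169, 159.6, 156 and 155 CPM in the SNpc libraries, against 129.7, 114, 118, 124 and 143 CPM in the VTA libraries. It was higher in each SNpc library than in any VTA library, with a log2 fold change of 0.36 ± 0.09 (SE, with an adjusted p of 0.00405 by edgeR). This call ended against a minimum change of 1.5-fold and with the replicate number as a block (0.37, edgeR adjusted p = 0.0533). In an alternative chosen after seeing the data, it also ended with markers of GABA and glutamate neurons as a covariate (edgeR adjusted p = 0.0872). The upstream windows printed above for these genes differ in GC content, at 61.2% for Kcnab2 and 45.2% for Kcnab1. Kcnab3, the least abundant beta subunit, averaged 12.5 ± 6.86 CPM in SNpc and 11.6 ± 2.69 CPM in VTA and was not called.

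The makeup of the beta subunits separated the regions. Per kb, Kcnab1 was 11.6% to 18.2% of the family in the SNpc libraries and 30.9% to 37.0% in the VTA libraries. Kcnab2 was 65.1% to 80.7% in SNpc and 54.4% to 61.6% in VTA, also without overlap. The summed level of the family was 198 ± 10.6 CPM in SNpc and 196 ± 23.3 CPM in VTA, a difference smaller than either SD. Summed per kb, it was 51.45 ± 3.81 CPM per kb in SNpc and 53.17 ± 6.65 CPM per kb in VTA, so the higher mean was then in VTA.

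**Figure D3:**
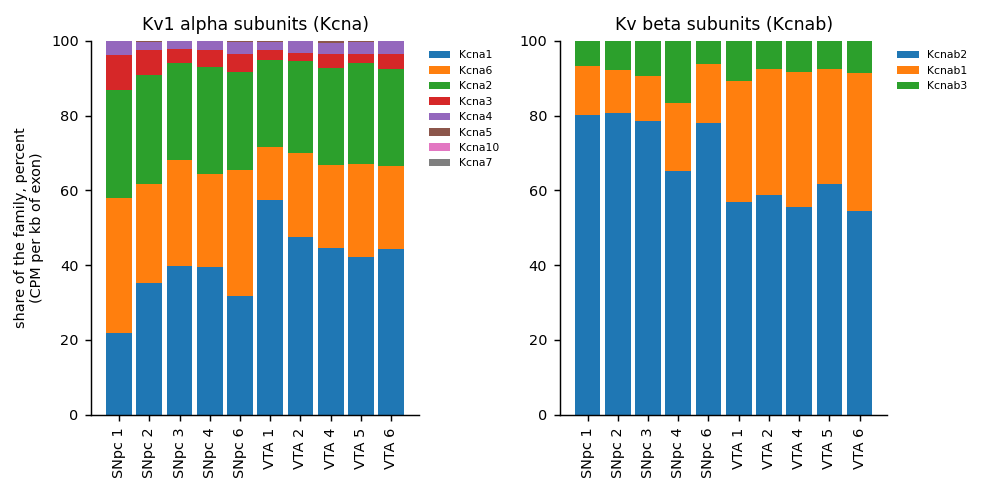
Share of each subunit in its family, in percent of CPM per kb of exon, for Kv1 alpha subunits and beta subunits, with a bar for each library. The Kcnab1 part of the beta subunits reaches at most 18.2% in SNpc libraries and at least 30.9% in VTA libraries.

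Kv2 channels carry much of the delayed rectifier current of cell bodies. Kcnb2, the Kv2.2 subunit, averaged 33.5 ± 8.84 CPM in SNpc and 38.0 ± 4.16 CPM in VTA and was not called, with a log2 fold change of -0.18 and a 95% interval from -0.56 to 0.20.

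The silent subunits that modify Kv2 channels held the other member called higher in SNpc. Kcns3, the Kv9.3 subunit (Entrez 238076, GRCm38.p6 chromosome 12, 11090202 to 11151168), had 62.3, 70.4, 70.5, 67.1 and 72.4 CPM in the SNpc libraries, against 31.7, 22.9, 37.6, 37.0 and 47.1 CPM in the VTA libraries. The lowest SNpc library was above the highest VTA library, and the log2 fold change was 0.96 ± 0.15 (SE, with an adjusted p of 0.000123 by edgeR). This call held under all 24 alternatives, over which the log2 fold change ran from 0.84 to 1.09. No other gene's exons overlap those of Kcns3. Kcns3 made up 96.8% to 98.5% of the Kcns family per kb in SNpc and 80.9% to 96.9% in VTA.

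The other silent subunits that passed were higher in VTA. Kcnv1, the Kv8.1 subunit, had 0.779, 0.554, 0.955, 0.928 and 0.518 CPM in the SNpc libraries, against 6.44, 3.40, 2.84, 2.46 and 3.56 CPM in the VTA libraries, so that the groups were apart by a log2 fold change of -2.32 ± 0.45 (SE, with an adjusted p of 0.000706 by edgeR). VTA library 1 stood above the other VTA libraries, and without it the log2 fold change was -2.04. Kcnf1, the Kv5.1 subunit, had 1.80, 1.30, 3.05, 4.57 and 1.23 CPM in the SNpc libraries, against 6.60, 7.34, 5.33, 4.25 and 5.59 CPM in the VTA libraries. Its groups overlapped in SNpc library 4, and its log2 fold change was -1.28 ± 0.39 (SE, with an adjusted p of 0.0147 by edgeR). With glial markers as a covariate it was -0.85 and not called (edgeR adjusted p = 0.147).

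Kcns2, the Kv9.2 subunit, was called with overlapping groups. It had 1.00, 1.40, 2.22, 2.48 and 2.98 CPM in the SNpc libraries, against 1.69, 8.87, 3.52, 5.20 and 5.03 CPM in the VTA libraries, and VTA library 1 lay inside the SNpc range. The log2 fold change was -1.27 ± 0.44 (SE, with an adjusted p of 0.0318 by edgeR), and the call ended in 14 of 24 alternatives, among them without any 1 of SNpc libraries 1, 2 and 3 or VTA libraries 2, 5 and 6, where it was -0.94 to -1.303. Of the 4 Kcng subunits, 0 were called (edgeR, 1 at an unadjusted p under 0.05, and 1 by DESeq2). Over all tested genes, edgeR called 38.2% in either direction. Kcng4, the Kv6.4 subunit, averaged 11.4 ± 5.01 CPM in SNpc and 19.8 ± 8.04 CPM in VTA, and its log2 fold change of -0.80 had an edgeR adjusted p of 0.0504. Without SNpc library 4 it was called (-1.02, edgeR adjusted p = 0.00878), as it was without VTA library 2 or VTA library 5. Kcng4 was also called with DESeq2, limma-voom and a stricter filter. Kcng3, the Kv6.3 subunit, averaged 5.08 ± 3.93 CPM in SNpc and 9.72 ± 2.81 CPM in VTA. When single libraries were left out it was called without SNpc library 3 (-1.41, edgeR adjusted p = 0.0175). It was also called with limma-voom (-1.33, limma-voom adjusted p = 0.0211), with the replicate number as a block (-1.70, edgeR adjusted p = 0.00996) and with all 12 columns (edgeR adjusted p = 0.0414). Kcng1 averaged 1.11 ± 0.417 CPM in SNpc and 1.23 ± 0.838 CPM in VTA, and Kcng2 1.73 ± 0.886 CPM in SNpc and 2.86 ± 0.825 CPM in VTA. Kcns1 averaged 0.430 ± 0.309 CPM in SNpc and 0.310 ± 0.259 CPM in VTA, and Kcnv2 0.501 ± 0.369 CPM in SNpc and 0.929 ± 1.75 CPM in VTA, and neither was called.

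Kv3 subunits open at high voltage and close fast and so let neurons repeat spikes at short intervals. Kcnc1, Kcnc2 and Kcnc4 were each called higher in VTA. Kcnc1, the Kv3.1 subunit (Entrez 16502, GRCm38.p6 chromosome 7, 46396219 to 46438706), had 58.5, 89.9, 105, 132 and 127 CPM in the SNpc libraries, against 179.6, 255, 168, 174 and 219 CPM in the VTA libraries. The groups were apart by a log2 fold change of -0.96 ± 0.19 (SE, with an adjusted p of 0.00135 by edgeR), and the call ended when the length and GC trend was removed (-0.42, edgeR adjusted p = 0.0712).

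Kcnc4, the Kv3.4 subunit, had 50.5, 57.0, 47.3, 34.5 and 40.5 CPM in the SNpc libraries, against 62.0, 61.1, 70.1, 60.5 and 75.0 CPM in the VTA libraries. Its groups were just apart, at a log2 fold change of -0.52 ± 0.13 (SE, with an adjusted p of 0.00577 by edgeR). Kcnc2, the Kv3.2 subunit, had 56.1, 60.8, 72.2, 108 and 81.0 CPM in the SNpc libraries, against 68.8, 171, 134, 112 and 131 CPM in the VTA libraries, and VTA library 1 lay within the SNpc range. Its log2 fold change was -0.71 ± 0.23 (SE, with an adjusted p of 0.0246 by edgeR). That call ended in 11 of 24 alternatives, among them without any 1 of SNpc libraries 1, 2 and 3 or VTA libraries 2 and 4, where it was -0.56 to -0.69.

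**Figure D4:**
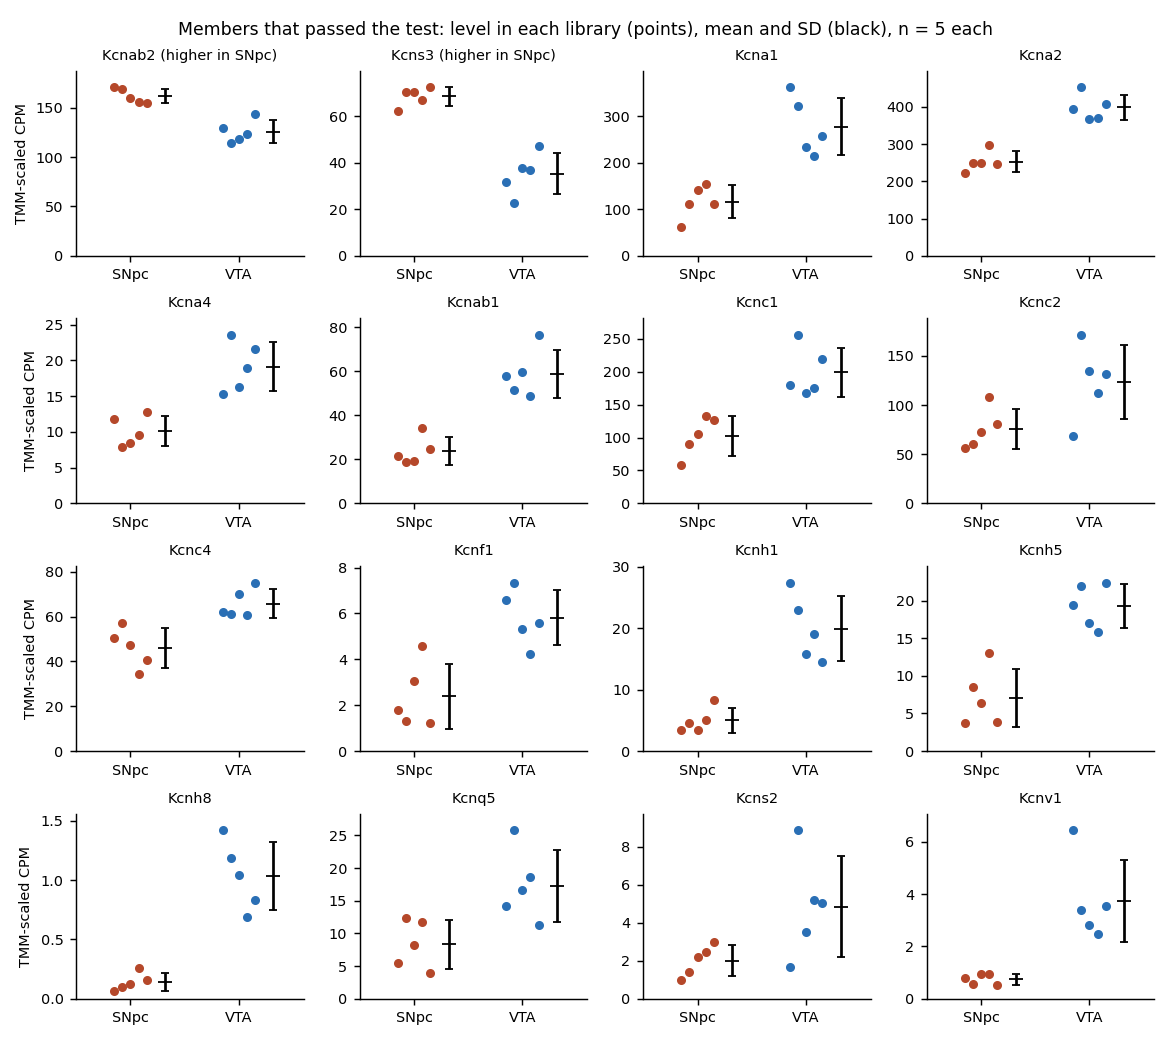
TMM-scaled CPM of 16 called members in each library (points, SNpc left and VTA right), with the mean and SD in black. The groups are apart in 12 panels and overlap for Kcnc2, Kcnf1, Kcnq5 and Kcns2.

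The Kcnh family holds the EAG, ERG and ELK channels, and its EAG members were higher in VTA. Kcnh1, the EAG1 subunit (Entrez 16510, GRCm38.p6 chromosome 1, 192189144 to 192510159), had 3.44, 4.63, 3.52, 5.11 and 8.32 CPM in the SNpc libraries, against 27.4, 23.1, 15.8, 19.0 and 14.5 CPM in the VTA libraries. The groups were apart, with a log2 fold change of -1.996 ± 0.26 (SE, with an adjusted p of 2.04e-05 by edgeR). Kcnh5, the EAG2 subunit, had 3.67, 8.46, 6.43, 13.0 and 3.82 CPM in the SNpc libraries, against 19.4, 21.9, 17.1, 15.8 and 22.4 CPM in the VTA libraries, again with separate groups and a log2 fold change of -1.45 ± 0.29 (SE, with an adjusted p of 0.00108 by edgeR). Both calls held under all 24 alternatives. Of the ELK members, Kcnh8 had 0.0636, 0.0978, 0.125, 0.259 and 0.162 CPM in the SNpc libraries, against 1.42, 1.19, 1.04, 0.687 and 0.836 CPM in the VTA libraries. It lay near the limit of detection in SNpc, with 45 counts over the 5 libraries against 373 in VTA, and its log2 fold change was -2.85 ± 0.76 (SE, with an adjusted p of 0.00719 by edgeR). With glial markers as a covariate the log2 fold change of Kcnh8 was -2.37 and was not called (edgeR adjusted p = 0.0968). The other ELK members were not called: Kcnh3 averaged 0.892 ± 1.30 CPM in SNpc and 0.392 ± 0.325 CPM in VTA, and Kcnh4 0.151 ± 0.206 CPM in SNpc and 0.541 ± 0.522 CPM in VTA.

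Of the 3 ERG subunits, 0 were called by edgeR, with Kcnh7 at an unadjusted p under 0.05 and called by DESeq2. Over all tested genes, edgeR called 38.2% in either direction. Kcnh2, the ERG1 subunit and the main ERG gene here, averaged 61.6 ± 6.81 CPM in SNpc and 60.0 ± 9.91 CPM in VTA. Its log2 fold change was 0.04, with a 95% interval from -0.25 to 0.33, and with the length and GC trend removed it was called higher in SNpc (0.35, edgeR adjusted p = 0.04), but not with the longest transcript as length (0.33, edgeR adjusted p = 0.0531). Kcnh6, the ERG2 subunit, averaged 16.6 ± 3.87 CPM in SNpc and 23.8 ± 13.6 CPM in VTA, with VTA library 6 at 46.6 CPM. Kcnh7, the ERG3 subunit, had 1.02, 6.39, 4.68, 15.7 and 3.46 CPM in the SNpc libraries, against 12.8, 30.5, 13.8, 18.02 and 17.4 CPM in the VTA libraries. Its log2 fold change of -1.57 ± 0.58 (SE, with an adjusted p of 0.0537 by edgeR) did not pass, but it did without SNpc library 4 (-2.19, edgeR adjusted p = 0.00086) or without SNpc library 1 (-1.29, edgeR adjusted p = 0.0245). Kcnh7 also passed with limma-voom, with the replicate number as a block and with all 12 columns.

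The Kv7 family carries the M current, which muscarinic receptors shut. Kcnq3 is one of the subunits that carry it in the brain. Kcnq3 averaged 52.8 ± 12.4 CPM in SNpc and 45.5 ± 10.1 CPM in VTA, and its log2 fold change was 0.22 ± 0.17 (SE, with an adjusted p of 0.352 by edgeR). When the length and GC trend was removed it was called higher in SNpc, with a log2 fold change of 0.67 (edgeR adjusted p = 0.00421).

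Kcnq5 had 5.54, 12.4, 8.17, 11.7 and 3.87 CPM in the SNpc libraries, against 14.1, 25.8, 16.6, 18.6 and 11.2 CPM in the VTA libraries. Its groups overlapped and its log2 fold change was -1.05 ± 0.30 (SE, with an adjusted p of 0.0111 by edgeR), a call that ended with the trend removed and with either marker covariate. Kcnq1, the Kv7 subunit of heart muscle, averaged 5.38 ± 1.84 CPM in SNpc and 6.86 ± 3.79 CPM in VTA and was not called. The Kcne genes, whose products are small subunits with a single membrane span that bind Kcnq1 in the heart, were all under 1 CPM in both regions. Of the 3 tested, 0 were called (edgeR, 0 also at an unadjusted p under 0.05, and 0 by DESeq2). Over all tested genes, edgeR called 38.2% in either direction. Kcne1l averaged 0.221 ± 0.212 CPM in SNpc and 0.243 ± 0.294 CPM in VTA, Kcne2 0.404 ± 0.641 CPM in SNpc and 0.496 ± 0.440 CPM in VTA and Kcne4 0.113 ± 0.101 CPM in SNpc and 0.286 ± 0.376 CPM in VTA. Genes on the opposite strand overlap 3.4% to 5.8% of the exon length of Kcng2, Kcnq5, Kcnab1, Kcnq1, Kcnh7 and Kcnab3, and without strand their reads cannot be told apart.

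Exon length moved with the region in these libraries, and 29 of the 41 tested members were longer than the median of all tested genes. Spearman's rho of exon length and log2 fold change was -0.373 over all tested genes with a length and -0.194 over the tested members. Relative to the mean of all libraries, log2 CPM changed by -0.178 to -0.0364 per doubling of exon length in the SNpc libraries and by 0.0666 to 0.226 in the VTA libraries (exact permutation p = 0.00794, two-sided, the smallest that 5 against 5 libraries can give). The longest of 5 equal classes of genes by exon length held 13 tested members, of which 8 were called higher in VTA and 0 in SNpc. Of all genes in that class, 47.7% were called higher in VTA and 8.21% in SNpc, and their median log2 fold change was -0.46 against -0.87 for the members. In the next class, 6 of 11 members were called higher in VTA, where 26.7% of all genes were. With the trend removed the median of the members was -0.53 with the library scale kept. The part of length in these differences was not tested otherwise.

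**Figure D5:**
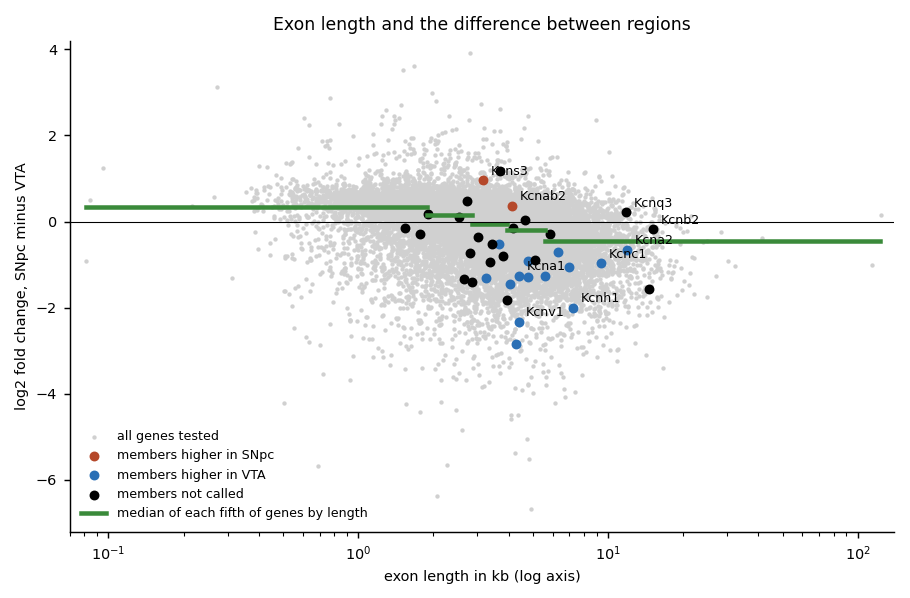
Exon length (x axis, log scale) against the log2 fold change (SNpc minus VTA) for all genes tested that have a length (grey) and for 37 members (coloured by call), with the median of each of 5 length classes in green. The medians fall to -0.46 in the longest class, and Kcnq3 and Kcnb2 lie above it while Kcnh1 and Kcna2 lie below.

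Of 30 genes for proteins known to place or regulate these channels, 6 were called higher in SNpc (20%, against 17.8% of all tested genes) and 5 in VTA (16.7%, against 20.4% of all tested genes). These shares are near those of all genes. The log2 fold change was positive for 10 of the 30 and negative for 20, with a median of -0.15. Among partners of Kv1 channels, 2 of 12 were called, both higher in VTA. These were Dlg2, a synaptic scaffold that binds Kv1 channels, at 358 ± 44.6 CPM in SNpc and 584 ± 48.0 CPM in VTA with a log2 fold change of -0.71 ± 0.10 (SE, with an adjusted p of 3.15e-05 by edgeR), and its relative Dlg1 (-0.71, edgeR adjusted p = 0.000228).

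Among partners of Kv2 channels, 4 of 6 were called, all higher in SNpc, where 17.8% of all tested genes were called. Over all 30 partner genes, calls higher in SNpc numbered 0 against a minimum change of 1.5-fold. They numbered 3 with markers of GABA and glutamate neurons as a covariate and 10 with the length and GC trend removed. Vapa and Vapb, proteins of the endoplasmic reticulum to which clusters of Kv2 channels are tied, were at 129.5 ± 12.2 CPM in SNpc and 83.2 ± 8.79 CPM in VTA and at 252 ± 19.9 CPM in SNpc and 173 ± 14.8 CPM in VTA, with log2 fold changes of 0.64 (edgeR adjusted p = 0.000129) and 0.54 (edgeR adjusted p = 0.000205). The calcineurin subunit Ppp3cb (0.48) and the kinase Cdk5 (0.44), which set the phosphorylation of Kv2 channels, were the others.

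Among regulators of Kv7 channels, 2 of 12 were called higher in SNpc and 3 in VTA, against 17.8% and 20.4% of all tested genes. Ank3, the ankyrin that holds Kv7 channels at the axon initial segment, was at 259.9 ± 26.1 CPM in SNpc and 816 ± 134 CPM in VTA, and its log2 fold change was -1.65 ± 0.11 (SE, with an adjusted p of 1.12e-07 by edgeR). Calmodulin, which binds Kv7 subunits, comes from several genes with the same protein product, and 2 of them, Calm2 (0.73) and Calm3 (0.37), were higher in SNpc, with reads that could be shared between such similar genes. The ubiquitin ligase Nedd4l was higher in VTA (-0.38, edgeR adjusted p = 0.0107).

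Markers of other cell types are given as sums over each list, beside the 17.8% of all tested genes called higher in SNpc and 20.4% in VTA. The 4 markers of glutamate neurons summed to 18.6 to 88.6 CPM in SNpc and 93.7 to 132 CPM in VTA, with 2 called higher in VTA, and Slc17a6 was most of that sum. The 6 markers of GABA neurons summed to 90.9 to 360 CPM in SNpc and 176 to 293 CPM in VTA, with 1 called (Vip, higher in VTA). Astrocyte markers summed to 449 to 728 CPM in SNpc and 631 to 799 CPM in VTA, with 3 of 10 called higher in VTA. Oligodendrocyte markers summed to 287 to 1390 CPM in SNpc and 723 to 910 CPM in VTA, with SNpc library 4 the highest of all and 1 of 9 called, in VTA. Markers of oligodendrocyte precursors summed to 9.78 to 19.2 CPM in SNpc and 24.2 to 42.9 CPM in VTA, with 3 of 4 called higher in VTA. Those of microglia summed to 15 to 40.5 CPM in SNpc and 37.2 to 54.4 CPM in VTA, with 2 of 8 called higher in VTA, and those of vascular cells to 2.02 to 10.7 CPM in SNpc and 7.32 to 84.8 CPM in VTA, with 2 of 6 tested called higher in VTA. Ependymal markers summed to 19.5 to 23.1 CPM in SNpc and 18.1 to 29.1 CPM in VTA, and neither of the 2 tested was called. Markers of serotonin and acetylcholine neurons summed to 6.45 to 11.6 CPM in SNpc and 5.03 to 35.8 CPM in VTA, with 1 of 5 tested called, Chat, higher in SNpc. Tmem212, an ependymal marker, was at 0 in every SNpc library. The part of these cells in the results was not tested beyond the covariates that follow, and these moved with the region. The glial mean log2 CPM was 3.56 to 3.75 in SNpc libraries 1, 2, 3 and 6 and 4.44 to 4.91 in VTA. The GABA and glutamate mean was 0.818 to 2.09 against 2.60 to 3.695. Only SNpc library 4 lay elsewhere, at 5.24 and 3.63. Where a call ended under a covariate, the region and these cells therefore cannot be told apart.

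With the mean level of astrocyte and oligodendrocyte markers as a covariate, 2 members were called higher in SNpc and 11 higher in VTA, and of all genes 1801 and 2400 were called on these sides. With the markers of GABA and glutamate neurons as a covariate, chosen after seeing the data, 1 member was called higher in SNpc, Kcns3, and 11 in VTA, and of all genes 1246 and 2016 were called on these sides. Without SNpc library 4, which lay nearest to the VTA libraries on the first principal component, 2 members were called higher in SNpc and 18 in VTA, and of all genes 3317 and 3193 were called on these sides.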

How the data were processed

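RNA of TRAP samples from dopaminergic neurons of SNpc and VTA was amplified to cDNA and sequenced as single-end reads, per the labels' protocols. The authors deposited a table of raw counts per gene for 12 columns. Per the submitters' processing notes, TopHat2 2.0.8 aligned the reads to mm10. How reads were counted, with which annotation and with what strand setting, is not given in the sources. Columns were matched to samples by title, and 0 columns were left unused.

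Identical columns were counted once, which left 5 libraries a region with 62356964 to 81393907 counts. The chi-square per gene of every other pair of columns of the same region was 46.8 to 162. The edgeR 4.0.16 robust quasi-likelihood F test (R 4.3.3) used TMM scaling, the default filter on low counts and the region as the only term. It was fitted to all 15685 genes that passed, with Benjamini-Hochberg adjustment over them, and was tested on simulated data first. The simulated counts varied less between libraries than these data and held changes only in genes above a minimum mean count. That run therefore says nothing about genes with low counts. Between libraries the biological coefficient of variation was 39.6%, and log2 fold changes had a median SE of 0.19. CPM per kb used the union of exons in GENCODE M21, which gave a length for 20945 genes. Positions, names (23008 of 23079 matched) and upstream windows came from RefSeq GRCm38.p6.

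Alternatives were other scalings and filters, DESeq2 1.42.0, limma-voom (limma 3.58.1), all 12 columns, the replicate number as a block, removal of a trend on length and GC content, marker covariates, a minimum change of 1.5-fold and each library left out. The members and gene lists were chosen with earlier results of these data known. Each called member that is named is given in every library. Members not called are given by mean, with tests for the most abundant and those at an unadjusted p under 0.05, and of partner genes the calls (up to 4 a list by smallest p) and the most abundant are named. Nedd4l, Kcng3, Kcnh2 and Kcnq3 were named after their values were seen. Some members and partner genes are counted in the totals but are not reported by name here.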

Additional observations from a re-analysis of the deposited data

Results flagged for a closer look

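In 6 of 82 groups of 5 libraries checked, 1 library stood apart from the other libraries of its region by Dixon's test on CPM without a log. Chance flags about 1 in 20 groups only where values are normally distributed, which was not tested for these genes. Kcnab3 was at 24.5 CPM in SNpc library 4, against 7.59 to 11.7 CPM in the other SNpc libraries. SNpc library 4 was also the SNpc library with the highest summed oligodendrocyte markers. Its mean log2 CPM of astrocyte markers was 4.21, against 2.58 to 2.85 in the other SNpc libraries. For markers of GABA and glutamate neurons it was 3.63, against 0.818 to 2.09. The part of any of these cells in the Kcnab3 value was not tested. Kcnv1, called higher in VTA, was at 6.44 CPM in VTA library 1, against 2.46 to 3.57 CPM in the other VTA libraries. Kcnv2 was at 4.06 CPM in VTA library 4, against 0.0301 to 0.396 CPM in the other VTA libraries. Kcne2 was at 1.54 CPM in SNpc library 6, against 0 to 0.259 CPM in the other SNpc libraries. Kcne1l was at 0.587 CPM in SNpc library 2, against 0.0626 to 0.207 CPM in the other SNpc libraries. Kcne4 was at 0.924 CPM in VTA library 1, against 0 to 0.258 CPM in the other VTA libraries.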

How the results depend on the processing

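Over the 24 alternatives, the calls of Kcna1, Kcnab1, Kcnh1, Kcnh5, Kcns3 and Kcnv1 were among 7 that held in each, and 11 calls ended in at least 1. Of 975 member values, 850 kept their direction and side of the threshold, 51 lost their call, 30 gained one and 44 changed sign, 0 of these in a called member. The cause of these changes was not tested. Members called higher in SNpc numbered 5 with the length and GC trend removed (library scale kept, and 5 with it refitted), 4 with the longest transcript as length, and 1 each with the replicate block, the neuron marker covariate and the 1.5-fold minimum. Members called higher in VTA numbered 8 with the 1.5-fold minimum and 10 with the longest transcript. The median of the members was -0.53, -0.50 and -0.54 in the 3 length corrections. All genes called higher in SNpc numbered 1814 with the replicate block, 1801 with glial markers, 1246 with neuron markers and 94 with the minimum. All genes called higher in VTA numbered 2016 with neuron markers and 1146 with the minimum. In the 3 length corrections (scale kept, refitted, longest transcript), all genes called numbered 2363, 2638 and 2661 in SNpc and 2582, 2450 and 2543 in VTA. Partner genes called higher in SNpc numbered 10 and 10 with the length trend removed, 3 with neuron markers and 0 with the minimum (edgeR, 0 also at an unadjusted p under 0.05). Those called higher in VTA numbered 10 with limma-voom, 8 with all 12 columns and 1 with the minimum. The neuron marker and longest transcript alternatives were chosen after seeing the data.

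The replicate block pairs libraries of the regions by number. Over the 4 shared numbers the correlations were -0.0723 to 0.0443, and 1 of 4 SNpc libraries correlated best with its own number. These values show no pairing but do not settle it, since a library kept from identical columns may belong to either number. Under this block the log2 fold changes of Kcnab2 (0.37), Kcnh8 (-3.06) and Kcns2 (-1.14) were close to those without it but were not called (edgeR adjusted p = 0.0533, 0.0534 and 0.117). With each library left out in turn, members called higher in SNpc numbered 2 to 2 and in VTA 14 to 18, all genes 2284 to 3317 and 2790 to 3193, partner genes in VTA 5 to 8 (8 without SNpc library 4), and the median of the members was -0.89 to -0.66.

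The log2 fold changes that changed sign were of members not called. With the length trend removed (scale kept, refitted, longest transcript) they were 0.012, 0.043 and 0.056 for Kcna6, 0.33, 0.36 and 0.36 for Kcnb2 and 0.058, 0.088 and 0.062 for Kcng1. With limma-voom and the replicate block they were -0.0031 and -0.091 for Kcnab3, 0.29 and 1.23 for Kcne1l, 0.14 and 0.19 for Kcng1, -0.0076 and -0.45 for Kcnh3, and 0.86 and 0.74 for Kcnv2. Glial and neuron markers gave -1.05 and -1.24 for Kcnh3 and 0.082 and 0.034 for Kcnv2, and neuron markers -0.041 for Kcna3, 2.20 for Kcne2, 0.14 for Kcnq1 and -0.18 for Kcns1. Library totals gave -0.020 for Kcnh2. With single libraries left out the ranges were -0.22 to 0.25 for Kcnab3, -0.90 to 0.89 for Kcne1l, -2.03 to 0.15 for Kcne2, -0.39 to 0.21 for Kcng1, -0.031 to 0.12 for Kcnh2, -0.18 to 1.72 for Kcnh3, -0.52 to 0.031 for Kcnq1, -0.032 to 1.02 for Kcns1 and -1.20 to 1.76 for Kcnv2. For the 12 members under 1 CPM in both regions, counts were low and also differed widely between libraries of a region (2 to 189 for Kcnh3 in SNpc, 2 to 257 for Kcnv2 in VTA), and which of these limits the test was not tested.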
